A study of Mus musculus with 5 samples.

Results

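The loci of Sox4, Maf, Blk and Etv5 were examined in peak lists of accessible chromatin from mouse thymocytes. Each locus was taken as a fixed window on the mm9 build. The windows were chromosome 13 from 28950000 to 29150000 for Sox4, chromosome 8 from 118050000 to 118350000 for Maf, chromosome 14 from 63950000 to 64080000 for Blk and chromosome 16 from 22340000 to 22480000 for Etv5. Every deposited peak that overlapped a window was a member, which gave 298 of the 332881 peaks of 5 libraries. Merging overlapping peaks of all libraries gave 135 of 157434 regions.

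These genes are known in mouse for their part in the branch of γδ T cells that later makes interleukin-17. Sox4 encodes a SOX-family factor that binds DNA through an HMG box, and Maf encodes a basic leucine zipper factor. Blk encodes a tyrosine kinase of the Src family, and Etv5 encodes a factor of the ETS family. Accessible chromatin, which the transposase of ATAC-seq cuts and tags, marks promoters and enhancers in use or poised for use.

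The γδ libraries were made from CD24+ γδ thymocytes of C57BL/6 mice that lacked TCRbeta and carried a CFP reporter knocked into a single Sox13 allele. Transgenic SOX13hi and transgenic SOX13lo cells came from such mice with a Sox13 transgene added, and were sorted as CFP-high and as CFP-low or negative. SOX13hi and SOX13lo cells were sorted in the same way from mice without the transgene. Double-positive (DP) thymocytes, αβ-lineage cells that carry both CD4 and CD8, came from wild-type C57BL/6 mice, so DP differed from the γδ libraries in genotype as well as in cell type. For each library 40000 cells were sorted. The labels give neither age nor sex, nor the promoter that drives the transgene. Each group holds 1 library, so no difference has a replicate check and no p-value is given.

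The lists held 63932 peaks in transgenic SOX13hi, 33155 in transgenic SOX13lo, 54435 in SOX13hi, 67482 in SOX13lo and 113877 in DP. Read depth is unknown, and a longer list cannot be told apart from more open chromatin. The name field inside the SOX13lo list reads SOX13hi, and the transgenic SOX13hi and DP libraries are labelled with the same index. The sample labels were followed. The gene table at hand is on GRCm38, so it was not looked up which peaks lie at a promoter, exon or intron, or whether marker genes match the labelled cell types. In that table's gene order, the nearest protein-coding genes are Prl5a1 and Cdkal1 for Sox4, Wwox and Dynlrb2 for Maf, Gata4 and Fam167a for Blk, and Tra2b and Dgkg for Etv5. A peak of a window may belong to such a neighbour.

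In 3 of the 4 windows the highest-scoring peak of every library fell in the same region, and the libraries differed at smaller sites elsewhere in the windows. The map of peaks by distance shows these sites. Scores are the authors' whole numbers of unstated meaning, so a peak is described by the share of its own list with a lower score. Each list has its own length, and these shares are not compared between lists.

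**Figure D1:**
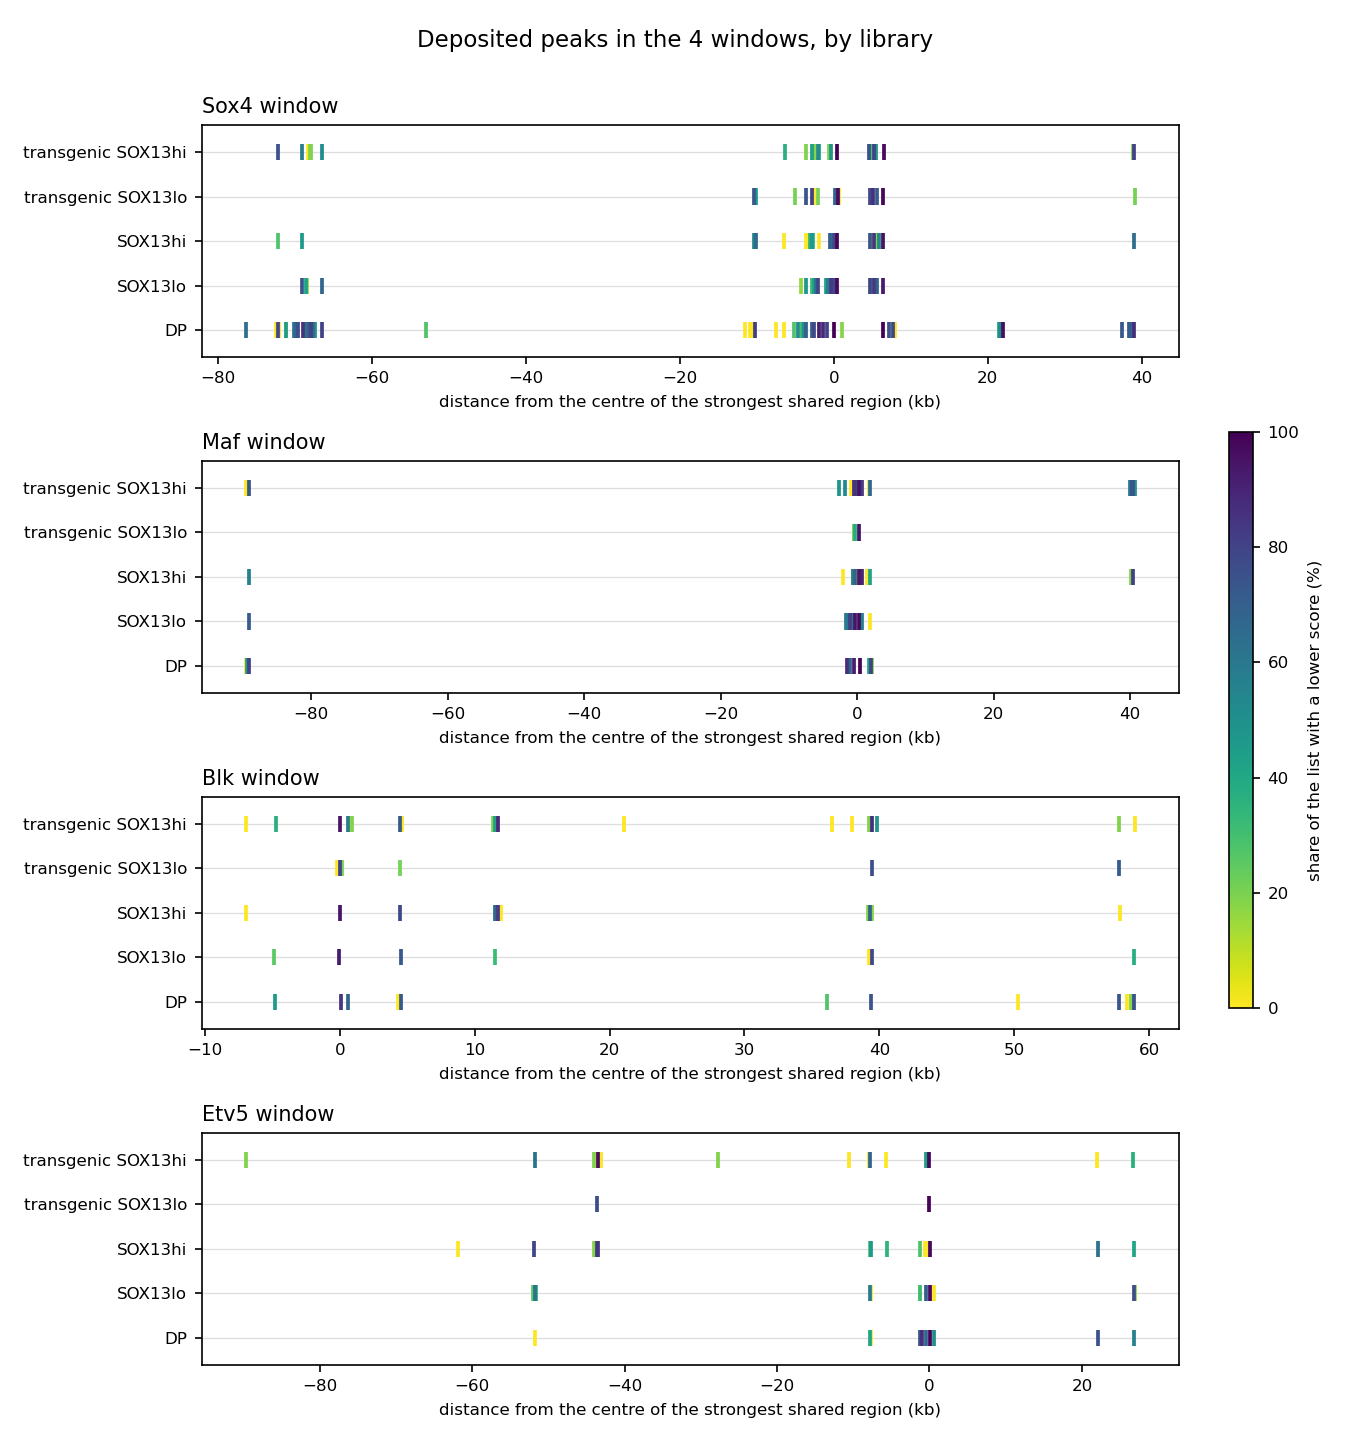
Each tick is a deposited peak, placed by its distance in kb from the centre of the strongest region shared by all 5 libraries (horizontal axis) in each library (rows), and coloured by the share of its list with a lower score. Dark ticks of every library line up at 0 in each window, while the Maf site at 40.3 kb has ticks in transgenic SOX13hi and SOX13hi alone.

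The number of peaks per window followed no single order. In the Sox4 window there were 24 peaks in transgenic SOX13hi, 15 in transgenic SOX13lo, 23 in SOX13hi, 24 in SOX13lo and 51 in DP. In the Maf window the numbers were 16 in transgenic SOX13hi, 4 in transgenic SOX13lo, 12 in SOX13hi, 12 in SOX13lo and 10 in DP. The Blk window held 19 peaks in transgenic SOX13hi, 6 in transgenic SOX13lo, 10 in SOX13hi, 7 in SOX13lo and 12 in DP. DP, with the longest list, thus had the most peaks at Sox4 and not at Maf or Blk. The Etv5 window held 15 peaks in transgenic SOX13hi, 2 in transgenic SOX13lo, 14 in SOX13hi, 12 in SOX13lo and 10 in DP. With every list limited to its 33155 highest-scoring peaks, the Etv5 numbers were 4, 2, 8, 5 and 4 in the same order of libraries. The plot of peaks per window gives the other windows in both forms.

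**Figure D2:**
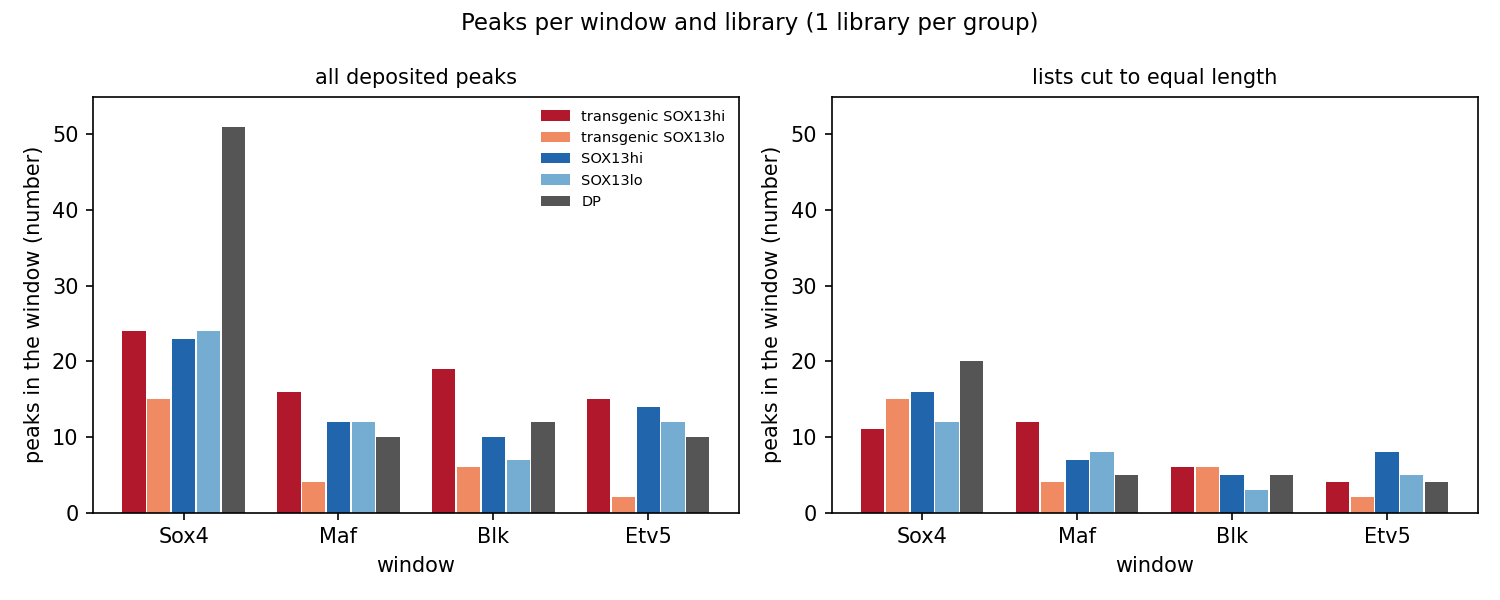
Bars give the number of peaks per window (horizontal axis) in each library, for all deposited peaks on the left and for lists limited to 33155 peaks on the right. At Sox4, DP stands at 51 with all peaks and at 20 with lists of equal length, where SOX13hi has 16.

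Sox4, the SOX factor, had the most merged regions in all 5 libraries by number, 5 of 63. Maf had 1 of 18, Blk 3 of 25 and Etv5 1 of 29. Over the 4 windows these were 10 of 135 (7.41%), against 9.45% of all merged regions. With regions joined into sites within 500 bp, Blk had 4 sites in all 5 libraries and Sox4 had 2. The strongest shared region of Sox4 spans 1531 bp at chr13:29044424-29045954. DP held it as 1 peak of 1508 bp that outscored 99.7% of the DP list. The γδ libraries held it as 3 to 5 short peaks each, of which the highest outscored 99.5% of the list in transgenic SOX13hi, 96.9% in transgenic SOX13lo, 98.2% in SOX13hi and 97.3% in SOX13lo. A second region, 6.40 kb further on at chr13:29051304-29051878, was also in all 5 libraries. Its peak outscored 97.2% of the list in transgenic SOX13hi, 98.2% in transgenic SOX13lo, 95.5% in SOX13hi, 93.0% in SOX13lo and 99.9% in DP. It was the highest peak of the window in transgenic SOX13lo and DP, and the first region was in the other 3 libraries.

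Between these 2 strong regions lay chromatin that the γδ lists held and DP did not. The region chr13:29050232-29050528 had a peak of 226 bp in transgenic SOX13hi, 237 bp in transgenic SOX13lo, 238 bp in SOX13hi and 269 bp in SOX13lo, and no peak in DP. These peaks outscored 79.5%, 86.1%, 83.8% and 83.8% of their lists, in that order. Its neighbour chr13:29049699-29049932 was likewise in the 4 γδ libraries and not in DP. Limiting the lists to equal length left both regions in all 4 γδ lists. Such regions made up 2 of the 135 in the 4 windows, against 0.694% of all merged regions, and no other window had one. When regions within 500 bp of each other were joined, 0 of 42 sites had this pattern, against 0.861% of all, so both regions lie in a larger stretch that also holds a DP peak.

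The DP list in turn held Sox4 peaks at places where the γδ lists had fewer peaks or none. A cluster of 6.10 kb at chr13:28972683-28978778, on the low-coordinate side, had 6 peaks in transgenic SOX13hi, 0 in transgenic SOX13lo, 2 in SOX13hi and 4 in SOX13lo, against 17 in DP. These covered 242, 0, 57, 458 and 2141 bp in that order. Limited to equal length, the lists had 3 peaks there in transgenic SOX13hi, 0 in transgenic SOX13lo, 1 in SOX13hi, 2 in SOX13lo and 6 in DP. The limits of this cluster were set after the peaks were seen, so its DP count is no test. Over the whole Sox4 window, DP had 0.448 peaks per 1000 of its list. Transgenic SOX13hi had 0.375, transgenic SOX13lo 0.452, SOX13hi 0.423 and SOX13lo 0.356. On the high-coordinate side, a DP peak of 50 bp at chr13:29067144-29067193 outscored 96.3% of the DP list and met no γδ peak. At Sox4, 33 of the 63 regions were in DP alone. Regions in DP and in no γδ list were 45 of 135 (33.3%) in the 4 windows, against 40.3% of all regions. The lowest score was 5 in the DP list and 7 or 8 in the γδ lists. Of the 51 DP peaks at Sox4, 11 had the lowest score of the DP list. With lists of equal length and regions joined within 500 bp, sites in DP alone were 4 of 29, against 14.0% of all.

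The sequence before the Sox4 start, where transcription begins, is shown because this locus had the highest number of merged regions in all 5 libraries. It did not have the highest number of joined sites. The sequence is given with the 2 entries for Etv5, as the 250 bases upstream of each start from RefSeq on GRCm38.p6. It was not placed on the mm9 peaks. Capitals mark CCAAT or its reverse complement ATTGG, the letters of the CCAAT box found in many promoters. Maf and Blk had no entry.
Sox4: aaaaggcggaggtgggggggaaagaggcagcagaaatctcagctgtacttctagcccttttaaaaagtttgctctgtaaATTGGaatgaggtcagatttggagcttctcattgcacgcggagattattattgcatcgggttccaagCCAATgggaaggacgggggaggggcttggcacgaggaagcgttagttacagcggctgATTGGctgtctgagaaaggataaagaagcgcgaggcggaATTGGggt
Etv5 (start 1): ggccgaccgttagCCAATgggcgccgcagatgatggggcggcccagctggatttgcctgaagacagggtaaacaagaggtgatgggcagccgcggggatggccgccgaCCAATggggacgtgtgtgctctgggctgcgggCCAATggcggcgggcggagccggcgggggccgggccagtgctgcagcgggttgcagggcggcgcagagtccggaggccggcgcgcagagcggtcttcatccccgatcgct
Etv5 (start 2): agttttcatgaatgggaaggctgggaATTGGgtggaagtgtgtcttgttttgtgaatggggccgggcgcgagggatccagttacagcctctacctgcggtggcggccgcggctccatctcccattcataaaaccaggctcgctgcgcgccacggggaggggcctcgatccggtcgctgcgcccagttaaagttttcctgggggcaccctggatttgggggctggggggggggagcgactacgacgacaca
CCAAT in either direction stood 4 times in the Sox4 sequence, 3 times at Etv5 start 1 and 1 time at start 2, and 33.8% of 32851 such upstream sequences held it. The short HMG-box core ACAAT, with its reverse complement ATTGT, was in none of the 3 and in 27.7% of all. CTTTGA and CCGGAA, also searched in either direction, were in none of the 3, against 13.8% and 12.0% of all. The GC content was 50.8% at Sox4, 71.2% at Etv5 start 1 and 62.0% at start 2, with a median of 52.4% over all.

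At Maf, the basic leucine zipper factor, accessible chromatin was concentrated in a strong block. The region chr8:118230712-118232414 spans 1703 bp and held the highest peak of all 5 libraries. That peak was 409 bp wide in transgenic SOX13hi, 342 bp in transgenic SOX13lo, 395 bp in SOX13hi, 580 bp in SOX13lo and 1012 bp in DP. It outscored 95.3%, 94.7%, 93.4%, 97.0% and 98.5% of the lists in that order. Transgenic SOX13lo had no Maf peak outside this block.

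Away from the block, a Maf site was found in both SOX13hi libraries and in no other. Neighbouring regions were joined here into sites when they lay within 500 bp, a distance chosen after the data were seen, since many peaks are only about 30 bp wide. The site spans chr8:118271548-118272229, with its centre 40.3 kb from that of the strong region. Transgenic SOX13hi had 4 peaks there over 359 bp, the highest above 74.7% of its list, and SOX13hi had 2 over 92 bp, the highest above 80.9%. Transgenic SOX13lo, SOX13lo and DP had 0 peaks there. Among lists of equal length transgenic SOX13hi kept 4 peaks and SOX13hi 1. On the opposite side, a site at chr8:118141964-118142550 was in transgenic SOX13hi, SOX13hi, SOX13lo and DP, and not in transgenic SOX13lo.

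Blk, the Src-family kinase, had 3 of its 25 merged regions in all 5 libraries. The strongest shared region, chr14:63996141-63996566, held the highest Blk peak of every library. This peak outscored 94.2% of the list in transgenic SOX13hi, 79.3% in transgenic SOX13lo, 94.5% in SOX13hi, 92.4% in SOX13lo and 84.1% in DP. A further shared region at chr14:64035648-64035909, 39.4 kb away, outscored 86.2% of the list in transgenic SOX13hi, 76.6% in transgenic SOX13lo, 68.6% in SOX13hi, 77.9% in SOX13lo and 73.7% in DP.

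The Blk site that set the libraries apart lay 11.7 kb from the strongest region, at chr14:64007681-64008338. It had 3 peaks over 184 bp in transgenic SOX13hi and 3 over 342 bp in SOX13hi, with the highest above 88.0% and 82.5% of their lists. SOX13lo had 1 peak of 28 bp above 31.8% of its list, and transgenic SOX13lo and DP had 0. Within it, the region chr14:64007932-64008187 was in the SOX13hi libraries alone, as a peak of 64 bp in transgenic SOX13hi and of 256 bp in SOX13hi. At equal list length the SOX13lo peak dropped out, and the site was in the 2 SOX13hi libraries only. The transgenic SOX13hi list also had many weak Blk peaks: 14 of its 19 outscored less than 50% of the list. The same held for 15 of its 24 peaks at Sox4, 6 of 16 at Maf and 11 of 15 at Etv5.

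Etv5, the ETS factor, had a strong region at chr16:22439566-22440147 in all 5 libraries. Its highest peak outscored 97.6% of the list in transgenic SOX13hi, 99.0% in transgenic SOX13lo, 97.7% in SOX13hi, 98.1% in SOX13lo and 99.3% in DP. The peak was 555 bp wide in transgenic SOX13hi, 71 bp in transgenic SOX13lo, 502 bp in SOX13hi, 215 bp in SOX13lo and 32 bp in DP. Narrow peaks can have high scores: the highest Sox4 peak was 28 bp wide in SOX13hi and 74 bp in DP. Whether peak width follows the extent of open chromatin was not tested. DP alone held the adjoining region chr16:22438704-22439124, of 421 bp, above 86.2% of its list. Its neighbour chr16:22438515-22438685 had peaks in SOX13hi, SOX13lo and DP. When regions within 500 bp were joined, both fell in a site that all 5 libraries held.

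A second Etv5 site, 43.6 kb to the low-coordinate side at chr16:22395753-22396734, was in 3 of the γδ libraries. Transgenic SOX13hi had 4 peaks over 754 bp there, including 1 of 624 bp that outscored 96.2% of its list. Transgenic SOX13lo had 1 peak of 72 bp above 76.6%, and SOX13hi had 3 peaks over 175 bp, the highest above 84.6%. SOX13lo and DP had 0 peaks there. This was the only Etv5 site outside the strong one that transgenic SOX13lo held, and its library had 2 Etv5 peaks in all. At equal list length the site was still in these 3 libraries, and still not in SOX13lo or DP.

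**Figure D3:**
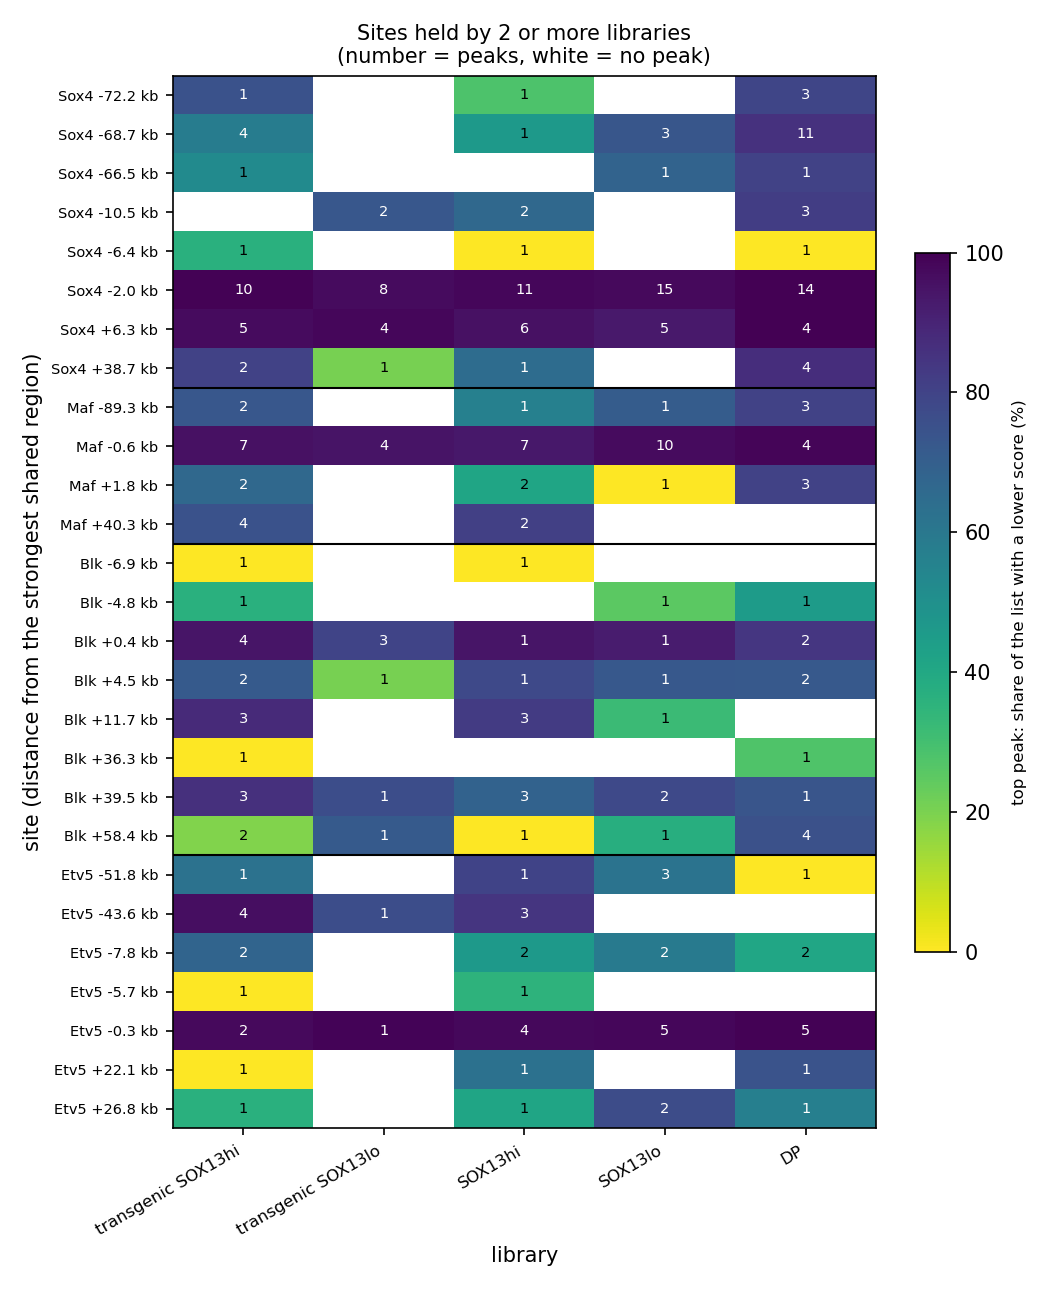
Rows are the 27 sites held by 2 or more libraries, named by locus and distance in kb from the strongest shared region, and columns are the libraries. Colour gives the share of the list scoring lower than the site's highest peak, numbers give peaks, and white means no peak: Maf at 40.3 kb and Etv5 at -43.6 kb are white in SOX13lo and DP.

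Joined within 500 bp, the windows held 42 sites, 15 at Sox4, 5 at Maf, 11 at Blk and 11 at Etv5. Both SOX13hi libraries held 4 sites that SOX13lo and DP lacked, 1 at Maf, 1 at Blk and 2 at Etv5, against 1.83% of all 63657 sites. The Blk site among these was a single 28 bp peak at the lowest score of each list, and the second Etv5 site held peaks of 28 bp. When lists were limited to equal length the count was 3 of 29 sites, against 3.46% of all. They were the Maf site at 40.3 kb, the Blk site at 11.7 kb and the Etv5 site at -43.6 kb. The pattern set no condition on transgenic SOX13lo, which also held the Etv5 site at -43.6 kb. This pattern was singled out after its values were seen, and whether the shares differ beyond the spread between animals was not tested. In the opposite direction, sites in both SOX13lo libraries and neither SOX13hi library were 0 of 42, against 0.738% of all. Both SOX13hi libraries and neither SOX13lo library held 6 of 42, against 3.69%. With lists of equal length these were 0 of 29, against 1.88%, and 3 of 29, against 4.39%. Of the 6, the Sox4 site at -6.4 kb and the Blk site at -6.9 kb were in no list of equal length. At the Etv5 sites at -5.7 and 22.1 kb the transgenic SOX13hi peak was 28 bp wide at the lowest score. Sites in both transgenic and neither non-transgenic γδ library were 0 of 42, against 0.856% of all, and the reverse was also 0 of 42, against 2.65%. Sites in DP alone were 8 of 42, of which 7 were at Sox4, against 30.5% of all. Sites shared by all 5 libraries were 8 of 42, against 21.3% of all.

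The comparison of SOX13hi with SOX13lo asked whether CFP-high cells differ at these loci. Intervals here are exact, cover counting error only and treat peaks as independent. Per 1000 peaks of the list, SOX13hi had 0.423 peaks at Sox4 and SOX13lo had 0.356, a ratio of 1.19 (95% interval 0.641 to 2.20). The ratio was 1.24 (0.509 to 3.02) at Maf, 1.77 (0.609 to 5.48) at Blk and 1.45 (0.621 to 3.42) at Etv5. SOX13hi was higher at all 4, but every interval included 1, and the Maf ratio was 0.875 with lists of equal length. None of the 4 windows was past 2-fold by peaks per 1000, where 3.15% of 4474 genome windows of 200 kb were at least 2-fold higher and 4.96% at least 2-fold lower. Under single alternatives 3 of them were: Blk at 2.48 and Etv5 at 2.19 by covered length, Blk at 2.07 among the upper 50% of each list by score, and Maf at 2.13 with peaks joined within 150 bp. Of the 60 merged regions in either library, 21 (35.0%) were in SOX13hi only, against 19.8% genome-wide, and 16 (26.7%) in SOX13lo only, against 39.9%. Many peaks were weak: of 59 SOX13hi peaks in the windows, 33 outscored less than 50% of the list and 14 had its lowest score. For the 55 SOX13lo peaks these numbers were 27 and 7. With all peaks, SOX13lo held 23 of the 44 SOX13hi regions (52.3%), against 67.0% of SOX13hi regions genome-wide. At equal list length SOX13lo held 5 of 10 SOX13hi regions at Sox4, 2 of 4 at Maf, 3 of 5 at Blk and 3 of 7 at Etv5. The genome-wide share at equal list length is not given, so these counts have no background.

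Among transgenic cells the short SOX13lo list limits the comparison. The ratio of transgenic SOX13hi to transgenic SOX13lo was 0.830 (0.418 to 1.70) at Sox4, 2.07 (0.669 to 8.53) at Maf, 1.64 (0.631 to 5.02) at Blk and 3.89 (0.905 to 35.1) at Etv5. Maf and Etv5 were at least 2-fold higher, against 9.56% of windows, and both intervals included 1. None was 2-fold lower by peaks per 1000, against 4.21%, but by covered length the Sox4 ratio was 0.391. With lists of equal length Maf had 12 peaks in transgenic SOX13hi and 4 in transgenic SOX13lo, and Etv5 had 4 and 2. Among the upper 50% of each list by score, the Etv5 ratio was 1.04. Of 67 merged regions in either library, 49 (73.1%) were in transgenic SOX13hi only, against 57.8% genome-wide, and 3 (4.48%) in transgenic SOX13lo only, against 9.64%.

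Peak numbers of transgenic cells could not be told from those of non-transgenic cells of the same CFP fraction at this depth of counting. Transgenic SOX13hi over SOX13hi gave 0.888 (0.480 to 1.65) at Sox4, 1.14 (0.504 to 2.63) at Maf, 1.62 (0.716 to 3.90) at Blk and 0.912 (0.411 to 2.04) at Etv5. None was past 2-fold by peaks per 1000, where 3.46% of windows were higher and 2.31% lower. Blk was at 2.11 with peaks joined within 150 bp, and Etv5 at 0.50 with lists of equal length. Of 79 merged regions in either, 35 (44.3%) were in transgenic SOX13hi only, against 34.8% genome-wide, and 15 in SOX13hi only, against 21.3%. Transgenic SOX13lo over SOX13lo gave 1.27 (0.621 to 2.53) at Sox4, 0.678 (0.159 to 2.24) at Maf, 1.75 (0.484 to 6.06) at Blk and 0.339 (0.0369 to 1.52) at Etv5. The Etv5 value rests on 2 peaks against 12 and was past 2-fold lower, as were 10.8% of windows, with 8.83% at least 2-fold higher. Maf was at 0.50 with lists of equal length and 0.254 among the upper 50% by score, and Blk at 2.36 by covered length, 2.0 with lists of equal length and 2.04 among the upper 50%. Of 44 merged regions in either, 5 (11.4%) were in transgenic SOX13lo only, against 9.23% genome-wide, and 26 (59.1%) in SOX13lo only, against 61.7%. Of the 2 transgenic SOX13lo peaks, 1 lay in the site at -43.6 kb that SOX13lo lacked.

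Against DP, the Maf and Etv5 windows had more peaks per 1000 in SOX13hi and SOX13lo. SOX13hi had 0.220 Maf peaks per 1000 and DP 0.0878, a ratio of 2.51 (0.994 to 6.49). At Etv5 SOX13hi had 0.257 and DP 0.0878, a ratio of 2.93 (1.21 to 7.37), the single ratio of 24 whose interval excluded 1. The 24 intervals were not adjusted for their number. SOX13lo over DP was 2.03 (0.802 to 5.23) at both Maf and Etv5. The 2 pairs share the DP library. These 2 loci were past 2-fold in each pair, against 11.5% of windows for SOX13hi over DP and 9.86% for SOX13lo over DP. By covered length both Maf ratios were 1.07: SOX13hi peaks covered 1444 bp, SOX13lo peaks 1965 bp and DP peaks 3049 bp. At equal list length the ratios of SOX13hi and SOX13lo to DP were 1.40 and 1.60 at Maf and 2.0 and 1.25 at Etv5. The interval of the Etv5 ratio for SOX13hi was then 0.536 to 9.08, which includes 1, and among the upper 50% by score Etv5 gave 1.49 for SOX13hi. Sox4 and Blk did not pass 2-fold in either pair, and 15.3% of windows were at least 2-fold lower in SOX13hi than in DP and 11.5% in SOX13lo. SOX13hi over DP was 0.943 (0.550 to 1.57) at Sox4 and 1.74 (0.675 to 4.40) at Blk, and SOX13lo over DP was 0.794 (0.467 to 1.31) at Sox4 and 0.984 (0.328 to 2.71) at Blk. Of 103 merged regions in SOX13hi or DP, 23 (22.3%) were in SOX13hi only, against 11.6% genome-wide, and 59 (57.3%) in DP only, against 64.7%. Of 93 in SOX13lo or DP, 13 (14.0%) were in SOX13lo only, against 16.9%, and 54 (58.1%) in DP only, against 55.8%.

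**Figure D4:**
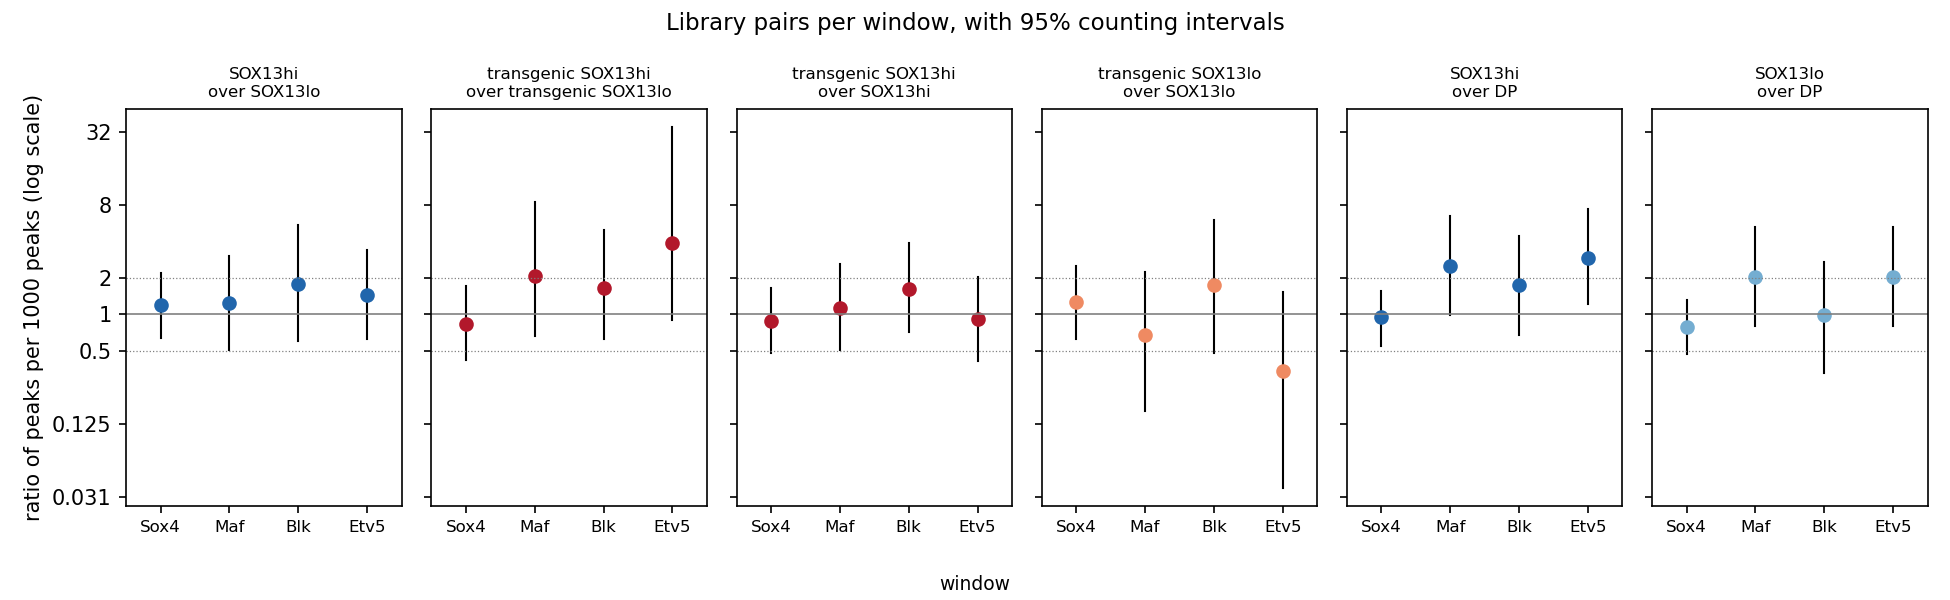
Points give the ratio of peaks per 1000 peaks of the list (vertical log axis) for the 4 windows in each of 6 library pairs, bars give exact 95% counting intervals, and dotted lines mark 2-fold. Etv5 for SOX13hi over DP, at 2.93, is the point whose bar lies wholly above 1, with bars not adjusted for their number.

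The window limits left few peaks uncounted at Blk and Etv5. Within 20 kb outside the Blk and Etv5 windows DP had 1 peak each and the γδ libraries had 0. Outside the Maf window there were 8 peaks in transgenic SOX13hi, 3 in transgenic SOX13lo, 9 in SOX13hi, 2 in SOX13lo and 10 in DP, and outside the Sox4 window 1, 0, 1, 1 and 6 in that order.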

How the data were processed

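ATAC-seq peaks were deposited by the authors as 1 list per library for 5 libraries, on mm9 per the submitters' processing notes, with a score per peak that is a whole number of unstated meaning. Aligner, peak caller, threshold and depth: not given in the sources used here. The genes, windows and pathway were chosen with earlier results of these data known.

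Peaks were merged over the lists where they overlapped by at least 1 bp, and regions within 500 bp were joined into sites. Peaks per window were scaled to 1000 peaks of the list. Ratios carry exact Clopper-Pearson 95% intervals of the conditional share. The genome background was every 200 kb window with at least 10 peaks in a pair, counted past 2-fold. Named regions were up to 3 per locus for each pattern of libraries (all 5, the 4 γδ libraries without DP, DP alone, by CFP fraction, by transgene), ordered by mean score rank, plus the highest peak of each library. With no mm9 annotation, promoter peaks of other genes of this pathway were not analysed here. Functions were tested on simulated lists. Alternatives were lists of equal length (33155 peaks), the upper 50% by score, peaks joined within 150 bp, covered length, windows shortened by 20 kb at each end, and autosomal totals. Tied scores at a cut were ordered by chromosome name as text, then by start. Chromosomes 13, 14 and 16 thus came before chromosome 8, which holds Maf. In SOX13hi the equal-length cut fell among peaks of score 10. Those at Sox4 and Etv5 were kept, so their equal-length counts depend on this order. Scripts ran in Python 3.11.15 (scipy 1.17.1, pandas 2.3.3, numpy 2.4.6; figures by matplotlib 3.10.9).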

Additional observations from a re-analysis of the deposited data

Results flagged for a closer look

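The directions of some contrasts differed between groups, and none of these differences was tested. At Sox4 the log2 ratio of SOX13hi to SOX13lo cells was -0.27 with the transgene and 0.25 without it, and that of transgenic to non-transgenic cells was -0.17 in SOX13hi and 0.35 in SOX13lo. At Maf the log2 ratio of transgenic to non-transgenic cells was 0.18 in SOX13hi and -0.56 in SOX13lo. The counting interval of each of these ratios included no difference.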

How the results depend on the processing

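Of 24 ratios between libraries, 19 kept their direction under all 6 alternatives. At Blk, 2 became exactly 1 with lists of equal length, transgenic SOX13hi over transgenic SOX13lo (6 and 6 peaks, 1.64 with all peaks) and SOX13hi over DP (5 and 5 peaks, 1.74 with all peaks). Those that turned were Maf for SOX13hi over SOX13lo (0.875 with lists of equal length, 0.930 in the upper 50% by score), Etv5 for transgenic SOX13hi over SOX13hi (1.26 by covered length) and Sox4 for SOX13hi over DP (1.12 with peaks joined within 150 bp). Of the 7 ratios past 2-fold, 0 stayed past it under every alternative. By covered length the log2 ratio of transgenic SOX13hi to transgenic SOX13lo at Sox4 was -1.35, outside its counting interval; the cause was not tested.

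Shares of regions rest on few regions, and some were higher under an alternative while others were lower. Over all merged regions with all peaks, transgenic SOX13hi shared 36.1% with transgenic SOX13lo and 55.8% with SOX13hi. SOX13hi shared 67.0% with SOX13lo and 67.2% with DP, and SOX13lo shared 61.8% with DP. Such shares over all regions are not given for the alternatives. The share of SOX13lo regions at Etv5 that were in DP was 45.5% with all peaks. It was 20% (1 of 5) with lists of equal length and 40% (2 of 5) in the upper 50% by score. The share of SOX13hi regions at Sox4 that were in SOX13lo fell from 62.5% to 50% (5 of 10) with lists of equal length. Shares that were higher follow. With regions joined within 150 bp, 90% (9 of 10) of transgenic SOX13hi sites at Sox4 were in SOX13hi, 52.6% (10 of 19) unjoined; 81.8% (9 of 11) of SOX13hi sites at Sox4 were in DP, 56.2% (9 of 16) unjoined; and 100% (6 of 6) of SOX13lo sites at Etv5 were in DP, 45.5% (5 of 11) unjoined. With all peaks, transgenic SOX13hi shared 22.2% of 18 Blk and 13.3% of 15 Etv5 regions with transgenic SOX13lo, and 38.9% and 46.7% with SOX13hi, and SOX13lo shared 71.4% of 7 Blk regions with DP. With lists of equal length these shares were 50% (3 of 6) and 50% (2 of 4), 66.7% (4 of 6) and 75.0% (3 of 4), and 100% (3 of 3). The upper 50% by score gave 66.7% (Blk, transgenic SOX13hi in SOX13hi), 100% (Blk, SOX13lo in DP), 50% (Etv5, transgenic SOX13hi in transgenic SOX13lo) and 75.0% (Etv5, transgenic SOX13hi in SOX13hi). With lists of equal length, windows past 2-fold were 5.88% for transgenic SOX13hi above transgenic SOX13lo and 7.16% for transgenic SOX13lo below SOX13lo, against 9.56% and 10.8% with all peaks. Of the 27 sites in 2 or more libraries, 13 were in fewer libraries with lists of equal length, 4 of them in none. No paired analysis was possible because each group has 1 library.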
